A study of Homo sapiens with 36 samples.

Results

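SGK1, MAF, CCDC141 and UBE2QL1 are 4 genes that were read at or close to nothing in some cells kept without hormone and at much higher levels once the synthetic androgen R1881 was added. They were taken by name from a table of gene counts that holds 61805 genes. They were chosen by their measured values, namely low counts without hormone, high counts with R1881 and smaller induced levels in lines carrying a guide RNA. The choice looked at the levels in all 12 groups, so every value of the 4 genes below is a description, with a standard error (SE) and no p-value. Tests are given for other genes only.

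Polyadenylated RNA of cultured prostate cancer lines was sequenced in 36 libraries, which form 12 groups of 3, and the title of the study asks what loss of TRIM33 does to transcription driven by androgen. LNCaP grows in response to androgen and came from a metastasis in a lymph node, and its derivative 42D resists the antiandrogen enzalutamide. 42D was sampled as the lines sgT33-5 and NT3, and LNCaP as sgT33-5, sgT33-5_MC_C2, sgT33-5_MC_F2 and NT3. No label spells these names out: judging by the title, sgT33-5 was taken to carry a TRIM33 guide RNA and NT3 to be the non-targeting control, and the 2 longer names are written C2 and F2. All lines were held for 3 days in medium with 5% charcoal-stripped serum, which lacks steroid hormones, and then received 5 nM R1881 or its vehicle DMSO for 6 h. The labels do not say whether replicates were separate cultures, so p-values measure the spread between these libraries, which may be technical. C2 and F2 are each sampled as a single line.

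Steroid hormones act through nuclear receptors, transcription factors that bind DNA when they hold their hormone. Androgens, glucocorticoids, mineralocorticoids and progestins act at sites built from copies of one short half-site. TRIM33 is an E3 ubiquitin ligase that binds chromatin. SGK1 is a serine/threonine kinase named for its rapid induction by serum and glucocorticoids. In the kidney, aldosterone induces it, and it then phosphorylates the ubiquitin ligase NEDD4L, which spares sodium channels from removal. MAF is a large Maf protein, a basic leucine zipper transcription factor known from lymphocytes, the lens and multiple myeloma. CCDC141 is a coiled-coil protein that acts at the centrosome during migration of neurons in mice. UBE2QL1 is related to the UBE2Q class of E2 enzymes, which pass ubiquitin to E3 ligases.

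On GRCh38, SGK1 (ENSG00000118515) spans 148.9 kb of the minus strand of chromosome 6 at chr6:134169248-134318112, and MAF (ENSG00000178573) spans 14.9 kb of the minus strand of chromosome 16 at chr16:79585843-79600737. CCDC141 (ENSG00000163492) covers 220.4 kb of the minus strand at chr2:178829757-179050137, and UBE2QL1 (ENSG00000215218) covers 47.9 kb of the plus strand at chr5:6448859-6496723. The promoter windows below show what precedes the starts of the 4 genes, and how unlike each other these starts are. Each runs from 250 bases before an annotated start to 50 bases after it, 5′ to 3′ on the gene's own strand, from RefSeq sequence of GRCh38.p14, and all 4 genes were matched by symbol. Capitals mark matches on either strand. The letters searched were AGAACA, the steroid half-site, then GGGCGG, the GC box, then TGTTTAC, a forkhead site, then TGACGTCA, the cyclic AMP element, and finally the TATA box in the form TATAAA. The palindrome of half-sites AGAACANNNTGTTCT, which contains the half-site, was searched as well. Another SGK1 window, at a start farther upstream with 1 TATA box match, is not shown.
SGK1, chr6:134177812-134178111: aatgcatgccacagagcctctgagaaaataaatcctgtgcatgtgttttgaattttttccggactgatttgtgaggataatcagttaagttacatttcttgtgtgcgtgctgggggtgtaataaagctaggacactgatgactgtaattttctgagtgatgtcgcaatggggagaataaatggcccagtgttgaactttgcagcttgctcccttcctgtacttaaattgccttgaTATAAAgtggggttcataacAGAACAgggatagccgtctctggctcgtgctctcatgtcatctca
SGK1, chr6:134174817-134175116: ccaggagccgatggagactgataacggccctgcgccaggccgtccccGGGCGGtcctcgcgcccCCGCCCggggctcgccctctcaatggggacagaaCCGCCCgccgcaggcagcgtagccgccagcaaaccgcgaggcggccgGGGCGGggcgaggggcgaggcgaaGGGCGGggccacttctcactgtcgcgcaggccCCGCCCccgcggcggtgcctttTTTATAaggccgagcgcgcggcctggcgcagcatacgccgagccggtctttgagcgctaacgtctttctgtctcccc
MAF, chr16:79600688-79600987: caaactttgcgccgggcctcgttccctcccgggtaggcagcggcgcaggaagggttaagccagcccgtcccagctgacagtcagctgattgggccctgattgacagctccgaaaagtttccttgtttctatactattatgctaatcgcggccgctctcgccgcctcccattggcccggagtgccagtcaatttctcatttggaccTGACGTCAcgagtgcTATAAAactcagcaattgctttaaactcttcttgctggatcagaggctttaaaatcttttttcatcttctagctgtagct
CCDC141, chr2:179050088-179050387: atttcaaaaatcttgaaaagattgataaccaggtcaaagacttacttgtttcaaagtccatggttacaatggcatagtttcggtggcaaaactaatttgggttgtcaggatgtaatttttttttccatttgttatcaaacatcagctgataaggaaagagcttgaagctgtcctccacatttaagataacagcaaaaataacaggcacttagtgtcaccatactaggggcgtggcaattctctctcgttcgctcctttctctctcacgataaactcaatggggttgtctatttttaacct
UBE2QL1, chr5:6448609-6448908: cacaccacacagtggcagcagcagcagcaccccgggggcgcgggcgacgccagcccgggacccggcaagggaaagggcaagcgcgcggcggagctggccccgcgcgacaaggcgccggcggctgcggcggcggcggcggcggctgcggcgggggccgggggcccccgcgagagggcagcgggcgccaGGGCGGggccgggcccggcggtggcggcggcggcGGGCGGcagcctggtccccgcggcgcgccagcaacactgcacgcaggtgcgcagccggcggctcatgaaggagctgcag

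Of these windows, the first SGK1 window held the only steroid half-site, with its first base 5 bases past the start, and a TATA box match 15 bases before the start. The second SGK1 window was 73.3% G or C, against 43% in the first, and held 6 GC box matches and 1 TATA box match. The MAF window held TGACGTCA and TATAAA, whose first bases lay 45 and 30 bases before the start. The CCDC141 window, 37.7% G or C, held no match, and the UBE2QL1 window, 82.3% G or C, held 2 GC boxes. Among 35116 promoter windows of the same length, 14.8% held the half-site, 0.00285% (1 window) the palindrome, 11.5% a TATA box, 45% a GC box, 3.42% the forkhead letters and 1.85% TGACGTCA. A missing match says only that these letters are not in this window.

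Library totals were 13900744 to 19793268 counts, and levels are given in CPM, the count of a gene scaled to one common library total. Depth per library makes 1 count about 0.06 CPM, so values near that rest on single reads. TRIM33 with R1881 was 73.9 ± 1.04 CPM in 42D sgT33-5 and 105 ± 3.45 in 42D NT3 (SD, n = 3 each), and 59.9 ± 6.79 CPM in LNCaP sgT33-5, 42.4 ± 3.74 in C2, 58.4 ± 4.82 in F2 and 126 ± 3.41 in LNCaP NT3. All 5 luminal prostate markers read (KLK3, KLK2, KRT8, KRT18, HOXB13) were present, with summed levels of 1270 to 2420 CPM in 42D libraries and 1390 to 4690 CPM in LNCaP libraries. The 3 leukocyte markers (PTPRC, CD3E, CD14) summed to at most 0.934 CPM in any library, and CD3E was at 0 in LNCaP. Of 4 neuroendocrine markers, which summed to 122 to 151 CPM in 42D and 39.4 to 89.2 CPM in LNCaP, CHGA was at or near 0 in both lines, while NCAM1 was 20.6 to 39.7 CPM in 42D and at most 0.255 CPM in LNCaP. The fibroblast markers COL1A1 and DCN summed to 19.5 to 32.1 CPM in 42D and 19.6 to 35.6 CPM in LNCaP, of which DCN gave at most 0.239 CPM. Genes of the mitochondrial chromosome took 2.14% of the counts in LNCaP sgT33-5 with DMSO, replicate 3, and 2.402% in LNCaP sgT33-5 with R1881, replicate 1, while the lowest share in any other LNCaP library was 4.161%. The values of the 4 genes that rest on these 2 libraries are given with and without them where they differ by more than 0.1 on the log2 scale.

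SGK1, the kinase among the 4 genes, was 249, 248 and 280 CPM with R1881 and 6.57, 7.44 and 4.43 CPM with DMSO in 42D NT3. In LNCaP NT3 it was 34.1, 41.5 and 39.3 CPM with R1881 and 0.994, 0.79 and 0.647 CPM with DMSO, from 1748 counts with R1881 and 38 with DMSO over 3 libraries each. No R1881 library came near a DMSO library in either line. The ratio of R1881 to DMSO was 42.4 in 42D NT3 (95% counting interval 37.7 to 47.8) and 46.8 in LNCaP NT3 (34 to 66.4). The fitted log2 fold changes were 5.42 (SE 0.26) in 42D NT3 and 5.53 (SE 0.45) in LNCaP NT3. In bulk RNA, a smaller share of cells with a transcript and less transcript per cell cannot be told apart, here and in every result below. Intervals on counts cover counting error only.

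MAF did not begin from silence in LNCaP. In 42D NT3 the gene was 14.7, 16.6 and 15.1 CPM with R1881 and 0.897, 1.25 and 0.873 CPM with DMSO, where the 3 libraries held 47 counts in all. In LNCaP NT3 it was 101, 126 and 94.8 CPM with R1881 and 7.83, 8.9 and 6.41 CPM with DMSO (357 counts). The induced level in 42D NT3 lay not far above the highest DMSO level in LNCaP, 11.8 CPM in F2. The ratio of R1881 to DMSO was nevertheless similar in the 2 lines, at 15.6 in 42D NT3 (11.6 to 21.4) and 14 in LNCaP NT3 (12.5 to 15.6). Fitted log2 fold changes were 3.97 (SE 0.21) in 42D NT3 and 3.79 (SE 0.22) in LNCaP NT3.

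CCDC141 came closest to an on and off pattern in LNCaP. In 42D NT3 it was 44.8, 53 and 47.9 CPM with R1881 and 0.777, 0.695 and 0.561 CPM with DMSO. In LNCaP NT3 it was 26, 27.7 and 22.4 CPM with R1881 and 0.117, 0 and 0.194 CPM with DMSO, which were 2, 0 and 3 counts. The ratio was 71.8 in 42D NT3 (50.7 to 105) and 236 in LNCaP NT3, with a counting interval of 101 to 728 because it rests on 5 DMSO counts. Fitted log2 fold changes were 6.17 (SE 0.24) in 42D NT3 and 7.78 (SE 0.76) in LNCaP NT3. The value for LNCaP NT3 lay between 7.3 and 8.45 when single libraries were left out, the lowest without DMSO replicate 2 and the highest without DMSO replicate 3.

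UBE2QL1 had few reads with DMSO and many with R1881 in 42D only. With R1881 it was 17.7, 16.9 and 17.4 CPM in 42D NT3, and with DMSO 0.359, 0.347 and 0.0624 CPM (6, 5 and 1 counts). The ratio was 68.1 (38.7 to 132), and the fitted log2 fold change was 6.07 (SE 0.45). In LNCaP the gene stayed at the edge of detection in every line. With R1881 there were 3, 2 and 2 counts in sgT33-5, 1, 0 and 0 in C2, 1, 2 and 0 in F2 and 2, 1 and 0 in NT3, and with DMSO 1 count over all 12 libraries, in C2 replicate 3. It did not pass the filter on low counts in LNCaP, where 3 of the 4 genes were tested. The 7 counts in LNCaP sgT33-5 with R1881 lie at least 2.4-fold above the level of 3 counts over its DMSO group, which held 0.

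The plot of levels by library shows the 4 genes on one logarithmic scale. Among the 15403 genes tested in 42D NT3, CCDC141 ranked 16, UBE2QL1 17, SGK1 20 and MAF 53 by fold change, and among 15519 in LNCaP NT3, CCDC141 ranked 2, SGK1 14 and MAF 33. These ranks describe how the genes were chosen. At an edgeR adjusted p below 0.05, 25.3% of all genes were called in 42D NT3 (13.9% higher, 11.4% lower) and 13.2% in LNCaP NT3 (8% higher, 5.15% lower). In the control lines, mean levels with DMSO were thus at most 1.01 CPM for CCDC141 and UBE2QL1 in both lines, for SGK1 in LNCaP and for MAF in 42D, while SGK1 in 42D NT3 and MAF in LNCaP NT3 had DMSO levels of 6.15 and 7.72 CPM.

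**Figure D1:**
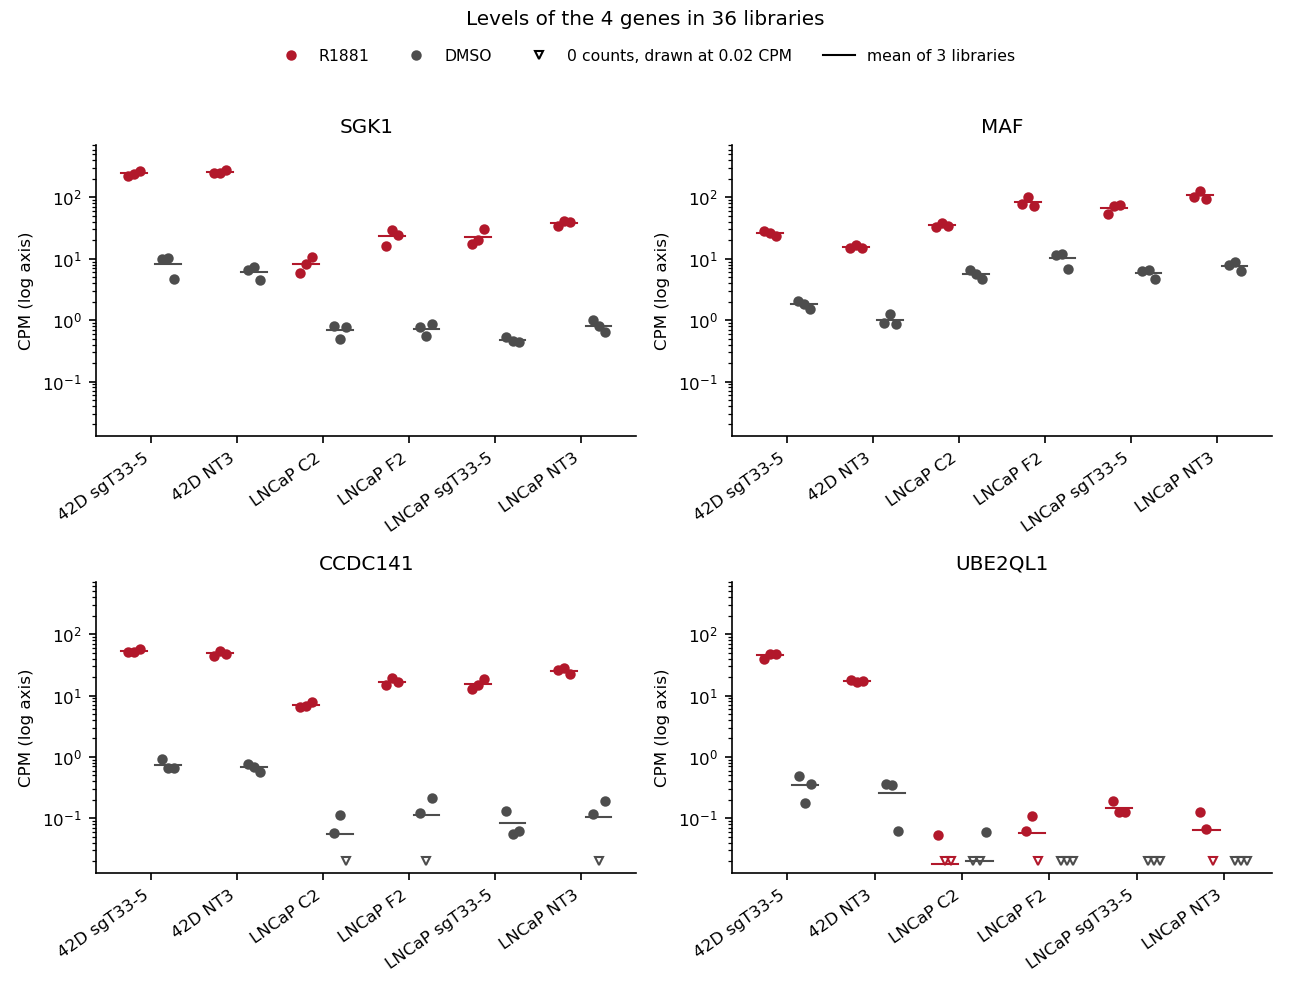
Level of each gene in all 36 libraries, in CPM on a logarithmic axis, with R1881 in red and DMSO in grey. Points are libraries, lines are means of 3 and open triangles are libraries with 0 counts, drawn at 0.02 CPM. UBE2QL1 with R1881 averaged 44.9 CPM in 42D sgT33-5 and 17.3 CPM in 42D NT3, while every LNCaP library was at or near 0.

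In the LNCaP guide lines SGK1, MAF and CCDC141 still responded to R1881, but reached lower levels than in NT3. C2 held the lowest level of all 3 genes. SGK1 with R1881 was 17.1, 20 and 30.2 CPM in sgT33-5, 5.78, 8.28 and 10.6 CPM in C2, 16.3, 29.2 and 24 CPM in F2 and 34.1 to 41.5 CPM in NT3. Every guide library lay below every NT3 library, C2 lay below both other guide lines, and sgT33-5 and F2 overlapped. Against NT3, the log2 fold change of SGK1 was -0.77 (SE 0.19) in sgT33-5, -2.21 (SE 0.21) in C2 and -0.72 (SE 0.19) in F2. The value for sgT33-5 was -0.6 without the low-mitochondrial libraries, of which R1881 replicate 1 held the lowest level of each of the 3 genes in its group.

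MAF with R1881 was 52.8, 72.5 and 75.9 CPM in sgT33-5, 33.4, 38.2 and 34.5 CPM in C2, 77.3, 99.6 and 70.9 CPM in F2 and 94.8 to 126 CPM in NT3. Only F2 overlapped NT3, through its second replicate. The log2 fold changes of MAF against NT3 were -0.68 (SE 0.16) in sgT33-5, -1.6 (SE 0.17) in C2 and -0.38 (SE 0.16) in F2, and sgT33-5 gave -0.53 without the low-mitochondrial libraries. For F2 the value ranged from -0.54 to -0.24 over the alternatives.

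CCDC141 with R1881 was 12.6, 15 and 18.8 CPM in sgT33-5, 6.53, 6.64 and 7.77 CPM in C2, 15, 19.1 and 16.5 CPM in F2 and 22.4 to 27.7 CPM in NT3. No guide library of CCDC141 reached the NT3 range, and C2 had the smallest spread of the 4 lines (SD 0.685 CPM). Its log2 fold changes against NT3 were -0.71 (SE 0.14) in sgT33-5, -1.85 (SE 0.15) in C2 and -0.59 (SE 0.14) in F2, and sgT33-5 gave -0.58 without the low-mitochondrial libraries. One set of NT3 libraries serves all 3 comparisons, so their values are set side by side and are not independent. With R1881, 3.04% of genes were called against NT3 in sgT33-5 (0.979% higher, 2.06% lower), 23% in C2 (9.67% higher, 13.3% lower) and 13.4% in F2 (6.19% higher, 7.26% lower).

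Set against the increase that R1881 gave in NT3, the portions kept in sgT33-5 and in F2 overlapped between the 3 genes. In C2 the highest SGK1 library, at 26.4%, lay just below the lowest MAF library, at 27.8%, and CCDC141 overlapped both. MAF ran up to 32.6% there. The DMSO means and the NT3 increase were held fixed, so the spread of the NT3 libraries does not enter these portions. Whether the genes differ was not tested. C2 kept 20.1% ± 6.41 of the SGK1 increase, 29.8% ± 2.53 of that of MAF and 27.4% ± 2.71 of that of CCDC141 (SD, n = 3). sgT33-5 kept 58.6% ± 18.3, 61.4% ± 12.5 and 60.9% ± 12.5 in the same order of genes, and F2 kept 59.8% ± 17.3, 72.7% ± 15.1 and 66.4% ± 8.33. For SGK1 the single libraries ran from 13.6% to 26.4% in C2, 44.3% to 79.3% in sgT33-5 and 41.4% to 75.9% in F2. Without the low-mitochondrial libraries, sgT33-5 kept 65.6% of the SGK1 increase, 68.1% of that of MAF and 66.5% of that of CCDC141 (n = 2). The portions in sgT33-5 and F2 overlapped for every gene.

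**Figure D2:**
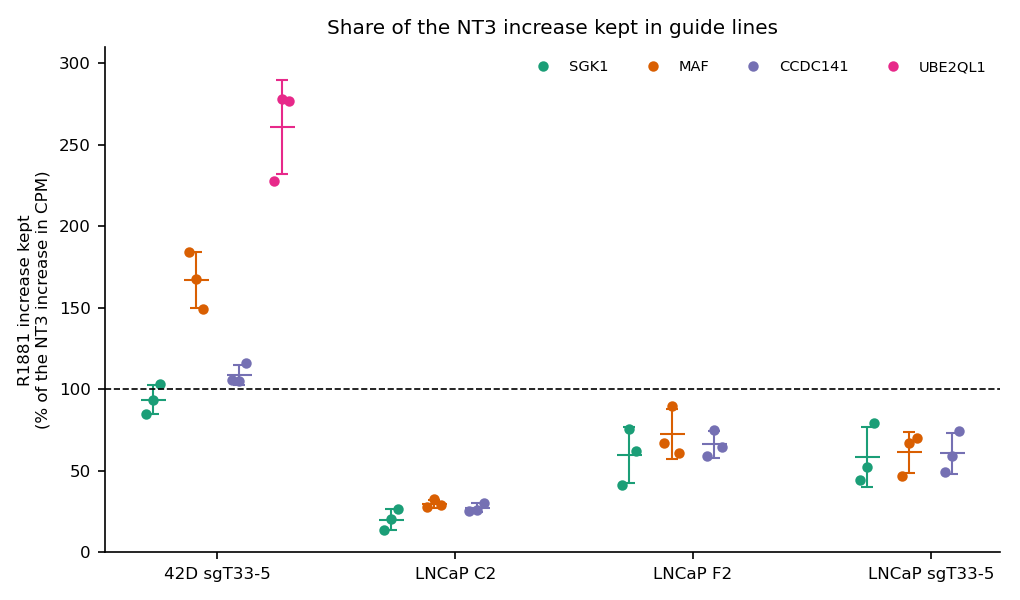
Part of the R1881 increase of NT3 (in CPM) that each guide line kept, in percent of the NT3 increase of the same cell line. Points are R1881 libraries, and bars are the mean and SD of 3, with DMSO means and the NT3 increase held fixed. C2 sits at 20.1% to 29.8% on average, below the other LNCaP guide lines, and 42D sgT33-5 sits at 93.6% or above.

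A lower induced level is not the same as a smaller fold response, because the DMSO level enters the fold as well. For SGK1 the R1881 log2 fold change was 5.54 (SE 0.56, 5.65 without the low-mitochondrial libraries) in sgT33-5 and 5.53 (SE 0.45) in NT3. The difference was 0.01 (SE 0.72), or 0.12 without those libraries. It rests on 23 DMSO counts in sgT33-5 and 38 in NT3, and its SE is too wide to tell an equal response from a smaller one. In C2 the SGK1 response was 3.55 (SE 0.47), a difference from NT3 of -1.98 (SE 0.65), and in F2 it was 4.97 (SE 0.45), a difference of -0.56 (SE 0.63). MAF responses were 3.51 (SE 0.23) in sgT33-5, 2.64 (SE 0.23) in C2 and 3.03 (SE 0.2) in F2, which differed from NT3 by -0.28 (SE 0.32), -1.16 (SE 0.32) and -0.77 (SE 0.3). For CCDC141 the differences were -0.36 (SE 1.1), -1.04 (SE 1.2) and -0.64 (SE 1), all within their errors, as few DMSO reads were counted. edgeR called the response different from NT3 for 0% of all genes in sgT33-5 (1206 at an unadjusted p below 0.05, 0 by DESeq2), 0.689% in C2 and 0% in F2 (454 at an unadjusted p below 0.05, 6 by DESeq2).

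The guide lines were set beside each other to show whether C2 held less of these transcripts than lines made with the same guide name. With R1881, C2 had the lowest levels of SGK1, MAF and CCDC141, and no C2 library overlapped a library of sgT33-5 or F2 for any of the 3. How many of all genes separate the libraries in this way was not counted, here and in the other comparisons. Against sgT33-5, the log2 fold change in C2 was -1.44 (SE 0.22) for SGK1, -0.92 (SE 0.17) for MAF and -1.14 (SE 0.16) for CCDC141. These were -1.6, -1.07 and -1.27 without the low-mitochondrial libraries. Against F2 it was -1.49 (SE 0.22) for SGK1, -1.22 (SE 0.17) for MAF and -1.27 (SE 0.16) for CCDC141. Of all genes, edgeR called 12% in the first comparison (6.97% lower) and 21% in the second (11.7% lower).

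Between F2 and sgT33-5 with R1881 the levels of all 3 genes overlapped, beside 8.74% of all genes called. The log2 fold changes in F2 were 0.04 (SE 0.2) for SGK1, 0.3 (SE 0.16) for MAF and 0.12 (SE 0.14) for CCDC141, and -0.12, 0.15 and -0.01 without the low-mitochondrial libraries. TRIM33 was also lower in C2 than in sgT33-5, by -0.5 (SE 0.08, edgeR adjusted p = 8.13e-05), and than in F2, by -0.45 (SE 0.08, adjusted p = 0.000127), and its part in the levels of the 3 genes was not tested.

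The fold response of SGK1 in C2 was below that in sgT33-5 by a log2 difference of -1.99 (SE 0.73), or -2.1 without the low-mitochondrial libraries. The difference was -0.87 (SE 0.33) for MAF and -0.68 (SE 1.3) for CCDC141, beside 0.0709% of all genes called. Between C2 and F2 the SGK1 difference was -1.42 (SE 0.65), beside 0.0515% of all genes called, and between F2 and sgT33-5 it was -0.57 (-0.68 without the low-mitochondrial libraries), beside 0.0258%.

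**Figure D3:**
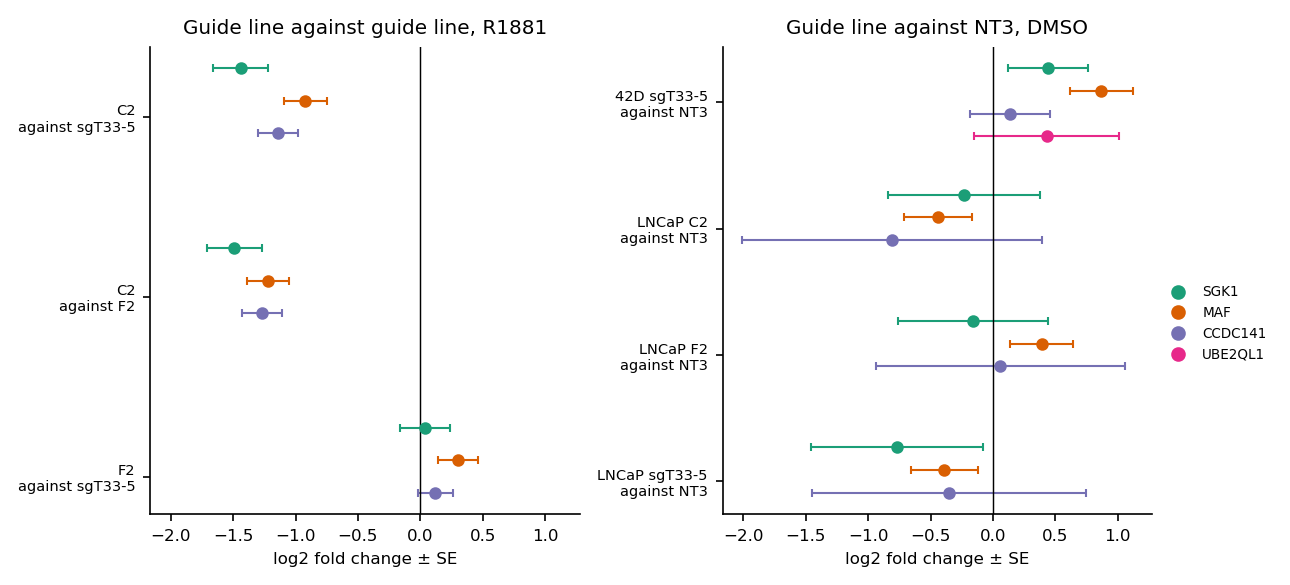
Log2 fold changes ± SE of the 4 genes, for guide line against guide line with R1881 (left) and for guide line against NT3 with DMSO (right). The C2 values on the left lie between -0.92 and -1.49, and those of F2 against sgT33-5 between 0.04 and 0.3.

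Without hormone, SGK1 and MAF in the LNCaP guide lines overlapped NT3, other than SGK1 in sgT33-5. SGK1 with DMSO was 0.536, 0.453 and 0.437 CPM in LNCaP sgT33-5, 0.804, 0.502 and 0.782 in C2, 0.786, 0.542 and 0.861 in F2 and 0.647 to 0.994 in NT3. Only sgT33-5 lay wholly below NT3, with a log2 fold change of -0.77 (SE 0.69). MAF with DMSO was 6.3, 6.57 and 4.62 CPM in sgT33-5, 6.66, 5.58 and 4.63 in C2, 11.7, 11.8 and 6.84 in F2 and 6.41 to 8.9 in NT3, so all 3 guide lines overlapped the control. Its log2 fold changes were -0.39 (SE 0.27) in sgT33-5, -0.44 (SE 0.27) in C2 and 0.39 (SE 0.25) in F2, and -0.25 in sgT33-5 without the low-mitochondrial libraries. CCDC141 with DMSO held 4 counts in sgT33-5, 3 in C2, 6 in F2 and 5 in NT3 over 3 libraries, so no difference was detectable at this depth.

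Of all genes, edgeR called 1.4% against NT3 with DMSO in sgT33-5, 18.2% in C2 and 16.7% in F2.

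In 42D the guide line did not show the lower induced levels seen in LNCaP. SGK1 with R1881 was 222, 244 and 267 CPM in 42D sgT33-5 and 249, 248 and 280 CPM in 42D NT3, and CCDC141 was 51.3, 51.2 and 56.4 CPM in sgT33-5 and 44.8, 53 and 47.9 CPM in NT3, so both overlapped the control. MAF was 28.4, 26.2 and 23.4 CPM in sgT33-5 and 14.7, 16.6 and 15.1 CPM in NT3. UBE2QL1 was 39.3, 47.9 and 47.7 CPM in sgT33-5 and 17.7, 16.9 and 17.4 CPM in NT3. For these last 2 genes every guide library lay above every control library.

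The log2 fold changes of 42D sgT33-5 against NT3 with R1881 were -0.09 (SE 0.15) for SGK1, 0.74 (SE 0.093) for MAF, 0.11 (SE 0.069) for CCDC141 and 1.36 (SE 0.096) for UBE2QL1. Of all genes, 0.513% were called there, 0.396% higher and 0.117% lower. In terms of the NT3 increase, 42D sgT33-5 had 93.6% ± 8.92 for SGK1, 167% ± 17.2 for MAF, 109% ± 6.23 for CCDC141 and 261% ± 28.7 for UBE2QL1, whose libraries gave 228%, 278% and 277%. The fold responses in 42D sgT33-5 were 4.89 (SE 0.23) for SGK1, 3.84 (SE 0.16) for MAF, 6.14 (SE 0.23) for CCDC141 and 7 (SE 0.38) for UBE2QL1 on the log2 scale. They differed from those of 42D NT3 by -0.53 (SE 0.35), -0.13 (SE 0.27), -0.03 (SE 0.33) and 0.94 (SE 0.58), beside 0.123% of genes called.

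With DMSO the 42D guide line also held more MAF reads, 2.08, 1.85 and 1.51 CPM in sgT33-5 and 0.897, 1.25 and 0.873 CPM in NT3, with no overlap. The log2 fold change was 0.87 (SE 0.25). It was 0.44 (SE 0.32) for SGK1, 0.14 for CCDC141 and 0.43 (SE 0.58) for UBE2QL1, on 17 counts in sgT33-5 and 12 in NT3, beside 1.13% of all genes called.

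The guide effect with R1881 in 42D minus that in LNCaP, both for sgT33-5 against NT3, was 0.69 (SE 0.26) for SGK1, 1.43 (SE 0.22) for MAF and 0.84 (SE 0.16) for CCDC141 on the log2 scale. These became 0.52, 1.28 and 0.7 when the low-mitochondrial libraries were left out. Of all genes, 1.32% were called for this difference. For UBE2QL1 the value of 0.29 (0.5 without those libraries) rests on 7 LNCaP counts in sgT33-5 and 3 in NT3. TRIM33 itself was -0.52 (SE 0.051) in 42D sgT33-5 and -1.07 (SE 0.077) in LNCaP sgT33-5 against NT3 with R1881, and the part of this difference in the result was not tested.

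The levels of the 4 genes separated 42D from LNCaP in the control lines already without hormone. SGK1, CCDC141 and UBE2QL1 were higher and MAF was lower in 42D NT3 than in LNCaP NT3. With DMSO, SGK1 averaged 6.15 ± 1.55 CPM in 42D NT3 and 0.81 ± 0.174 CPM in LNCaP NT3 (SD, n = 3 each), a log2 fold change of 2.89 (SE 0.59). MAF averaged 1.01 ± 0.212 CPM in 42D NT3 and 7.72 ± 1.25 CPM in LNCaP NT3, a log2 fold change of -2.94 (SE 0.41). No library of the one line overlapped the other for either gene.

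CCDC141 with DMSO averaged 0.678 ± 0.109 CPM in 42D NT3 and 0.104 ± 0.0978 CPM in LNCaP NT3, a log2 fold change of 2.58 (SE 0.77). UBE2QL1 had 12 DMSO counts in 42D NT3 and 0 in LNCaP NT3, at least 3.94-fold higher when 3 counts over the group are taken as the floor. Of all genes, 68.1% were called between these lines with DMSO.

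With R1881 the same order of cell lines held, and 68.9% of genes were called. The log2 fold change of 42D NT3 over LNCaP NT3 was 2.76 (SE 0.18) for SGK1, -2.79 (SE 0.16) for MAF and 0.94 (SE 0.11) for CCDC141. UBE2QL1 had 833 counts in 42D NT3 and 3 in LNCaP NT3, a ratio of 264 (89.9 to 1280). The fold response differed by -0.14 (SE 0.62) for SGK1 and 0.15 (SE 0.44) for MAF. For SGK1 and MAF the ratio between the lines was therefore similar with R1881 and with DMSO, at 6.77 and 7.47 (5.31 to 10.8) for SGK1 and 0.145 and 0.13 for MAF. For CCDC141 the ratio of 42D to LNCaP was 1.92 with R1881 and 6.31 (2.44 to 20.7) with DMSO, and the fold response differed by -1.64 (SE 0.78), beside 3.85% of all genes called for a difference in response.

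By level with R1881, SGK1 stood lowest in C2, then in sgT33-5 and F2 of LNCaP, which overlapped, then in LNCaP NT3, and highest in the 42D lines, which overlapped. MAF ran the other way between cell lines, lowest in 42D NT3, then 42D sgT33-5, then C2, with sgT33-5 and F2 overlapping each other and F2 overlapping LNCaP NT3 at the top. CCDC141 had the order of SGK1, and UBE2QL1 was detected well only in 42D. Across the 12 group means of log2 CPM, SGK1 and CCDC141 correlated at 0.952, SGK1 and MAF at 0.473, and MAF and UBE2QL1 at 0.057. These are descriptions over groups that share libraries and treatment.

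CCDC141 overlaps TTN, the gene of the giant muscle protein titin, by 1046 bases on the same strand, at their ends. Reads in the overlap cannot be assigned to one of them by strand. TTN with R1881 was 17.4, 26 and 33.5 CPM in 42D sgT33-5 and 21.5, 28.2 and 27 CPM in 42D NT3. In LNCaP it was 1.15, 3.33 and 3.82 CPM in sgT33-5, 0.857, 0.851 and 0.807 CPM in C2, 1.66, 3.28 and 3.03 CPM in F2 and 3.38, 4.99 and 4.01 CPM in NT3. With DMSO, TTN had 11 counts in 42D NT3 and 2 in LNCaP NT3.

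The TTN pattern thus had the features of CCDC141, with low counts without hormone, high counts with R1881 and the lowest induced level in C2. TTN with R1881 was at least 14.5-fold higher than DMSO in C2 and at least 47.8-fold higher in F2, where the DMSO groups held 0 counts. In 42D NT3 its log2 fold change was 6.75 (SE 0.95, edgeR adjusted p = 5.72e-07), and in LNCaP NT3 the ratio was 95.6 (26.1 to 795). C2 held less TTN than NT3 with R1881 at an edgeR adjusted p of 0.000131. How many reads the pair shares was not tested. The other 8 features that overlap one of the 4 genes held 1 count over all 36 libraries.

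**Figure D4:**
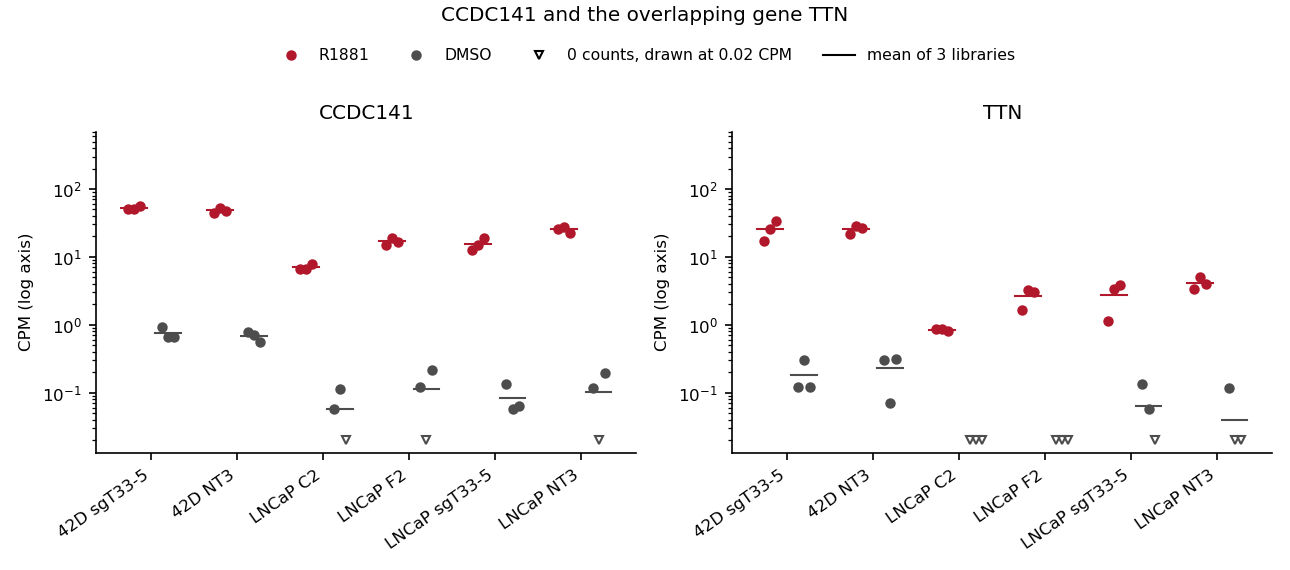
Levels of CCDC141 (left) and of TTN, which it overlaps by 1046 bases (right), in CPM on logarithmic axes for all 36 libraries. Points are libraries, lines are means of 3 and open triangles mark 0 counts. With R1881 both genes have their lowest means in C2 and their highest in 42D.

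Other genes of the same pathways were taken from lists, each read against the shares of all genes called above. Among 9 SGK kinases and activators, 2 rose and 0 fell with R1881 in 42D NT3, and 2 of 8 tested rose in LNCaP NT3. The paralog SGK3 rose by 1.07 (SE 0.15, edgeR adjusted p = 6.1e-06) in 42D NT3 and by 0.68 (SE 0.092, adjusted p = 3.16e-06) in LNCaP NT3, while SGK2 was at -0.01 in 42D and was not tested in LNCaP. MTOR, part of the complex that phosphorylates SGK1, rose by 0.56 (SE 0.12, adjusted p = 0.00508) in 42D NT3 and by 0.65 (SE 0.12, adjusted p = 0.000534) in LNCaP NT3. Against NT3 with R1881, MTOR fell by 0.55 (SE 0.12, adjusted p = 0.00194) and AKT1 rose by 0.2 (SE 0.053, adjusted p = 0.00709) in C2. In F2 AKT1 rose by 0.19 (SE 0.053, adjusted p = 0.0164). That call was lost without F2 replicate 1 or NT3 replicate 3, and in a fit of only the libraries compared (0.0762).

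Of SGK1 substrates and sodium transport genes, 6 of 12 rose and 2 fell in 42D NT3 (median log2 fold change 0.09, over all genes -0.003), and 4 of 15 rose and 0 fell in LNCaP NT3 (0.01, over all genes -0.011). NDRG1, a stress-responsive protein that SGK1 phosphorylates, rose by 4.26 (SE 0.1, edgeR adjusted p = 1.66e-12) in 42D NT3 and by 2.12 (SE 0.19, adjusted p = 1.95e-07) in LNCaP NT3. NEDD4L rose by 1.05 (SE 0.056, adjusted p = 4.15e-12) and 1.11 (SE 0.075, adjusted p = 2.69e-11) in these lines. Against NT3 with R1881, 6 of 15 fell and 2 rose in C2 (median -0.29), 2 fell in F2 and 2 in sgT33-5. NDRG1 fell by 2.31 (SE 0.19, adjusted p = 7.4e-08) in C2 and NEDD4L by 0.96 (SE 0.075, adjusted p = 5.21e-10). NDRG1 in sgT33-5 (-0.89, SE 0.18, adjusted p = 0.0119) missed the threshold without the low-mitochondrial libraries (0.0955), without replicate 1 of sgT33-5 (0.0802) or replicate 2 of NT3 (0.0692), and in a fit of only the libraries compared (0.098). NEDD4L fell by 0.38 (SE 0.074, adjusted p = 0.00362) in sgT33-5. In F2 NDRG1 fell by 0.94 (SE 0.18, adjusted p = 0.00191) and NEDD4L by 0.31 (SE 0.074, adjusted p = 0.00636), which was lost without F2 replicate 1 (0.0827). The members that rose in C2 were NEDD4, by 0.27 (adjusted p = 0.0194, lost without C2 replicate 2), and NDRG2, by 0.22 (adjusted p = 0.00158). The sodium pump subunit ATP1B1 (-0.41, adjusted p = 0.000982) and the sodium channel subunit SCNN1A (-0.22, adjusted p = 0.0157, lost without replicate 3 of either treatment) fell with R1881 in 42D NT3. In 42D sgT33-5 against NT3 the median over the 12 genes was 0.03.

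MAF pairs with other basic leucine zipper proteins and has large and small relatives. Of 11 of these tested, 3 rose and 0 fell with R1881 in 42D NT3, and 2 of 10 rose in LNCaP NT3. The small Maf protein MAFF was at 1.13 in LNCaP NT3 (SE 0.39, edgeR adjusted p = 0.0454), a call lost with DESeq2 (0.0772) or without any 1 of 5 of the 6 libraries, and MAFG and MAFK were not called in either control line. JUN rose by 0.46 (SE 0.12, adjusted p = 0.00893) in LNCaP NT3, lost without DMSO replicate 2 (0.0503), and in 42D NT3 NFE2L1 rose by 0.16 (SE 0.042, adjusted p = 0.00654) and NFE2L2 by 0.17 (SE 0.055, adjusted p = 0.0226), the second lost without DMSO replicate 1 or 2 or R1881 replicate 3. In 42D sgT33-5 against NT3 with R1881, 0 of 11 were called. In C2 against NT3, 2 of 10 rose, JUN by 0.59 (SE 0.11, adjusted p = 0.000383) and NFE2L3 by 0.26 (SE 0.082, adjusted p = 0.0209, lost without replicate 1 or 3 of NT3 or replicate 2 of C2).

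Of the UBE2Q group with the FBXW7 ligase, 1 of 6 rose in 42D NT3, UBE2Q1 by 0.14 (SE 0.043, edgeR adjusted p = 0.0173, lost without DMSO replicate 1 or R1881 replicate 3), and 0 of 6 rose and 1 fell in LNCaP NT3. The one that fell was CUL1, the scaffold of the ligase, by 0.15 (adjusted p = 0.0198), lost without DMSO replicate 2 or 3 or R1881 replicate 1. This call was also lost without the filter on low counts (0.143) and in a fit of only the libraries compared (0.0831). Against NT3 with R1881, 3 of 6 fell and 1 rose in C2. UBE2Q2 fell by 0.3 (SE 0.066, adjusted p = 0.00143), RBX1 by 0.27 (SE 0.065, adjusted p = 0.00303) and UBE2Q1 by 0.16 (SE 0.047, adjusted p = 0.016), and CUL1 rose by 0.16 (SE 0.042, adjusted p = 0.00562). The UBE2Q1 call was lost without NT3 replicate 1 or 2 or C2 replicate 3. It was also lost without the filter on low counts (0.183) and in a fit of only the libraries compared (0.0863). RBX1 also fell in F2, by 0.23 (adjusted p = 0.0173), lost without NT3 replicate 1 or 2 or F2 replicate 1, and in a fit of only the libraries compared (0.0646). Of the CCDC141 partners and centrosomal migration genes, 2 of 8 rose and 1 fell in 42D NT3, and 0 rose and 2 fell in LNCaP NT3. PDE4D, a cyclic AMP phosphodiesterase that binds the CCDC141 partner DISC1, fell in both, by 0.63 (SE 0.11, adjusted p = 0.000235) and 0.59 (SE 0.094, adjusted p = 3.63e-05), and rose by 0.76 (SE 0.092, adjusted p = 5.82e-07) in C2 against NT3. In sgT33-5 it rose by 0.37 (SE 0.095, adjusted p = 0.0318), lost without any 1 of 5 of the 6 libraries and without those of low mitochondrial share (0.125). A fit of only the libraries compared lost it too (0.0551). HDAC6, a deacetylase that CCDC141 is known to inhibit in mice, rose by 0.24 (SE 0.049, adjusted p = 0.000642) in 42D NT3, and NDEL1 by 0.33 (SE 0.09, adjusted p = 0.0101, lost without DMSO replicate 2 or R1881 replicate 3). MYH10, a nonmuscle myosin, fell by 0.24 (SE 0.064, adjusted p = 0.00899) in LNCaP NT3.

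A further list holds genes known to be induced through steroid receptors. Of 9 tested, 7 rose and 1 fell with R1881 in 42D NT3 (median 2.05), and 6 rose and 1 fell in LNCaP NT3 (median 1.34). FKBP5, a co-chaperone of steroid receptors, rose by 3.89 (SE 0.044, edgeR adjusted p = 1.78e-23) in 42D NT3 and by 3.02 (SE 0.085, adjusted p = 3.89e-17) in LNCaP NT3. ERRFI1, an inhibitor of the EGF receptor, rose by 3.07 (SE 0.082, adjusted p = 1.02e-12) and 2.75 (SE 0.15, adjusted p = 5.95e-11). The one that fell was TSC22D3, a glucocorticoid-induced leucine zipper protein, by 0.83 (SE 0.07, adjusted p = 3.33e-08) in 42D NT3. In LNCaP NT3 TSC22D3 fell by 0.73 (SE 0.23, adjusted p = 0.0419), a call lost without any 1 of 5 of the 6 libraries or without the filter.

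In C2 against NT3 with R1881, 8 of these 9 fell and 0 rose (median -0.92), ERRFI1 by 1.65 (SE 0.14, edgeR adjusted p = 4.29e-08) and CRISPLD2 by 1.8 (SE 0.32, adjusted p = 7.37e-05). In F2 4 fell, among them FKBP5 by 0.54 (SE 0.081, adjusted p = 5.61e-05), and KLF9 rose by 0.21 (SE 0.063, adjusted p = 0.0237). The KLF9 call was lost without F2 replicate 2 or NT3 replicate 3, and in a fit of only the libraries compared (0.0789). In sgT33-5 2 fell, FKBP5 by 0.32 (SE 0.081, adjusted p = 0.0285) and ERRFI1 by 0.58 (SE 0.14, adjusted p = 0.024). Both were lost without the low-mitochondrial libraries (0.216 for FKBP5 and 0.177 for ERRFI1) and without replicate 1 or 2 of either group. A fit of only the libraries compared lost both (0.136 for FKBP5 and 0.105 for ERRFI1), and ERRFI1 was lost without the filter on low counts (0.056). In 42D sgT33-5 1 rose, CRISPLD2 by 0.39 (SE 0.086, adjusted p = 0.0429), which was lost without any 1 of the 6 libraries. Of 3 steroid receptors tested, 3 fell with R1881 in 42D NT3, among them the progesterone receptor PGR by 2.61 (SE 0.32, adjusted p = 2.13e-07) and the glucocorticoid receptor NR3C1 by 1.31 (SE 0.2, adjusted p = 1.26e-05). In LNCaP NT3 1 of 3 fell, PGR (-1.06, SE 0.33, adjusted p = 0.0279), and NR3C1 was at -0.17 (SE 0.52, adjusted p = 0.915). The PGR call was lost without DMSO replicate 3 or R1881 replicate 1 or 2, and in a fit of only the libraries compared (0.0939).

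**Figure D5:**
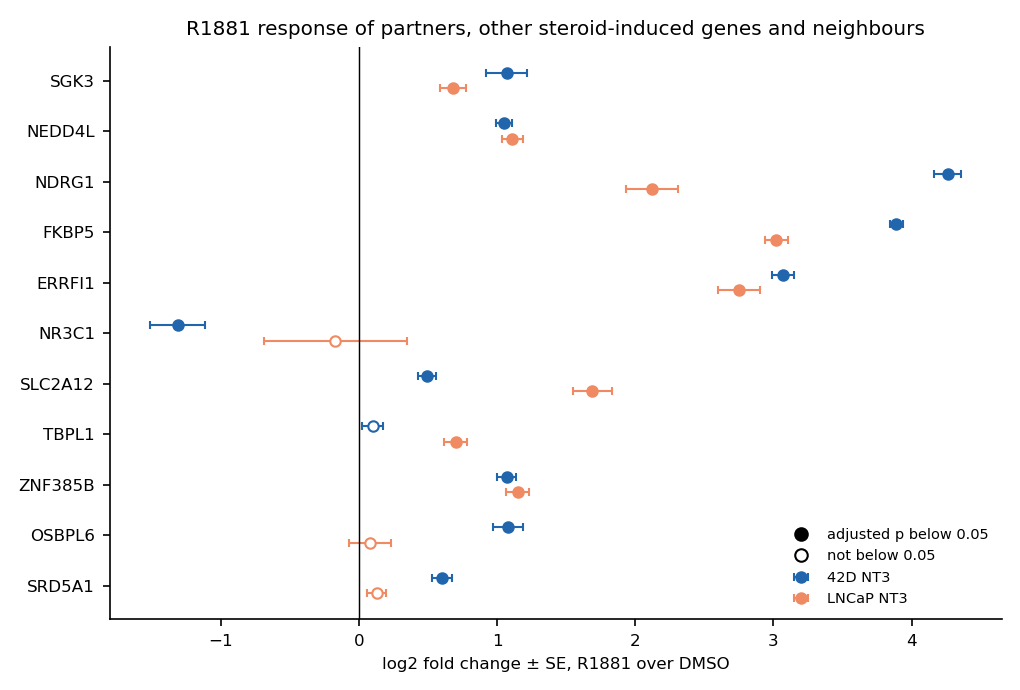
R1881 response (log2 fold change ± SE, R1881 over DMSO) of 11 chosen genes related to or lying near the 4 genes, in 42D NT3 (blue) and LNCaP NT3 (orange). Filled points passed an edgeR adjusted p of 0.05. NDRG1 (4.26 and 2.12), FKBP5 (3.89 and 3.02) and ERRFI1 (3.07 and 2.75) have the highest values among the genes plotted in both lines, while NR3C1 lies below 0 in 42D.

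Genes within 500 kb of the 4 were read in the same libraries. Near SGK1, SLC2A12, a glucose transporter 116.6 kb away, rose with R1881 by 0.49 (SE 0.065, edgeR adjusted p = 4.9e-06) in 42D NT3 and by 1.69 (SE 0.14, adjusted p = 2.32e-09) in LNCaP NT3, and fell by 0.68 (SE 0.12, adjusted p = 0.000352) in C2 against NT3. TBPL1, a TBP-like factor, was at 0.1 (SE 0.074) in 42D NT3 and rose by 0.7 (SE 0.082, adjusted p = 3.19e-07) in LNCaP NT3. Near MAF, an unnamed gene 5.1 kb away (ENSG00000278058) was at 1.06 in LNCaP NT3 (SE 0.36, adjusted p = 0.0466) on a mean of 0.972 CPM. This call was lost without any 1 of the 6 libraries, with DESeq2 (0.0983) and without the filter on low counts (0.0565). WWOX, 373.2 kb away, was not called in either line.

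Around CCDC141, 4 of 9 tested neighbours rose in 42D NT3, beside 13.9% of all genes, and 2 of 10 in LNCaP NT3, beside 8%. TTN, which may share reads with CCDC141, was among them in both. SESTD1 and TTN-AS1, 51.5 kb and 49.8 kb away, were called in neither control line. ZNF385B rose by 1.07 (SE 0.068, edgeR adjusted p = 3.21e-11) in 42D NT3 and by 1.15 (SE 0.084, adjusted p = 6.15e-11) in LNCaP NT3, and OSBPL6 by 1.08 (SE 0.11, adjusted p = 6.01e-08) in 42D NT3. Against NT3 with R1881, FKBP7 rose by 0.62 (SE 0.15, adjusted p = 0.0031) in C2, and ZNF385B fell by 0.61 (SE 0.082, adjusted p = 7.32e-06) in F2. Near UBE2QL1, 3 of 4 tested neighbours rose in 42D NT3, beside 13.9% of all genes, and the median over 5 in LNCaP NT3 was 0.08 (over all genes -0.011). The nearest, MED10, 70.3 kb away, rose by 0.33 (SE 0.087, adjusted p = 0.00742, lost without DMSO replicate 1), NSUN2, 102.5 kb away, by 0.19 (SE 0.044, adjusted p = 0.00289), and SRD5A1, which encodes a steroid 5-alpha-reductase, by 0.6 (SE 0.072, adjusted p = 1.12e-06). SRD5A1 also rose in F2 against NT3 with R1881, by 0.44 (SE 0.067, adjusted p = 3.97e-05).

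Genes whose pattern was most like that of each gene were ranked by Pearson correlation of log2 CPM over the 12 group means, among 13947 genes. Nearest to CCDC141 was SNAI2, the transcriptional repressor Slug, at 0.996. Its mean with R1881 was 11.8 CPM in 42D sgT33-5 and 11.4 in 42D NT3, and 4.95 CPM in LNCaP sgT33-5, 3.26 in C2, 4.44 in F2 and 7.21 in LNCaP NT3, while no DMSO group passed 0.569 CPM. The pseudogene ZNF812P (0.987) and the T-box factor TBX15 (0.986) came next. TBX15 with R1881 was 2.7 CPM in C2, against 9.37 CPM in LNCaP NT3.

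SGK1 was most like PDE7A, a cyclic AMP phosphodiesterase (0.988), PGC, a gastric and prostatic protease precursor (0.985), and ZBTB24, a zinc finger protein (0.983). PDE7A had a far flatter profile, at 71 CPM with R1881 and 52.5 with DMSO in 42D NT3, and 57.2 with R1881 and 42.1 with DMSO in LNCaP NT3. MAF was most like POLR3E, an RNA polymerase III subunit (0.988), TBC1D1 (0.986) and MPHOSPH9 (0.985). UBE2QL1 was most like an unnamed gene on chromosome 4, ENSG00000287262 (0.985), the ubiquitin ligase RNF103 (0.985) and the secreted protein SMOC1 (0.98). SMOC1 with R1881 was 8.28 CPM in 42D sgT33-5 and 5.77 CPM in 42D NT3, with at most 0.127 CPM in any LNCaP group. The 12 means share libraries and treatment, so the correlations are given with no test.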

How the data were processed

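Polyadenylated RNA was sequenced as 51 bp read pairs from stranded libraries, per the labels. The submitters' processing notes name cutadapt, a read trimmer, the aligner HISAT2 2.1.0 and the genome build GRCh38 (hg38). The counting tool and its strand setting are not given in the sources used here. The authors deposited whole-number counts per gene, with no scaling, and 1 entry without a gene name held 0 counts. The 36 libraries held 13900744 to 19793268 counts, and columns were assigned by their names.

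The test was the quasi-likelihood F test of edgeR 4.0.16 under R 4.3.3, 2-sided and robust, after TMM scaling and edgeR's own filter on low counts. P-values were adjusted over all genes tested by Benjamini-Hochberg, with a threshold of 0.05. Fits were made separately for 24 LNCaP libraries (15519 genes) and 12 of 42D (15403), and for all 36 (16564) between cell lines. SE is the Wald standard error of the log2 fold change, and CPM uses TMM-scaled library totals. The procedure was tried on simulated counts, with each library drawn independently of the others. That trial therefore does not cover correlation between same-numbered libraries. The members and lists were chosen with earlier results of these data known. Tests of the 4 genes had been planned between guide lines, with DMSO and between cell lines. They are given as descriptions, because the choice used the levels in all 12 groups.

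Named genes are the 4 members, a panel (TRIM33, NR3C1, TTN and paralogs), per list and comparison the 2 called genes that changed most each way at a mean of at least 1 CPM, the nearest tested neighbours and the 3 most similar genes by correlation (prior count 2). ZNF385B in 42D NT3 was named after its values were seen. Some genes of the lists are not reported here and enter no count, median or sum over a list. Intervals on ratios of counts are exact at 95% and cover counting error only. The floor is 3 counts over a group, and a ratio to it leaves out counting error in the other group. The alternatives tried were RLE size factors, DESeq2 1.42.0, leaving out that filter, fitting just the libraries under comparison, the replicate number as a block, leaving out 2 libraries of low mitochondrial share, and each library left out in turn. By the rule that every same-numbered pair of libraries must correlate above 0.1, the numbers paired libraries for R1881 in LNCaP F2 and in 42D sgT33-5, for LNCaP sgT33-5 against NT3 with R1881 and for LNCaP F2 against NT3 with DMSO. The other comparisons missed this rule, which does not show them unpaired. For R1881 in LNCaP NT3, same-numbered pairs had a median correlation of 0.224 (lowest 0.091), against -0.08 for other pairs. In each comparison the median was higher for same-numbered pairs. Every SE and p-value of the main fits ignores this pairing, also where the rule was met.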

Additional observations from a re-analysis of the deposited data

Results flagged for a closer look

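In C2 the response to R1881 was not that of NT3, by an interaction term in edgeR, for 3 named genes of the lists, beside 0.689% of all genes called. The values were -1.58 for ERRFI1, -1.46 for NDRG1 and -1.25 for FKBP5. Most named genes were picked as the most changed of their lists, so counts of them are not rates.

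Between 42D NT3 and LNCaP NT3 the response differed, by the same kind of test, for 8 named genes, beside 3.85% of all genes called. It was larger in 42D for NDRG1 (2.11), CRISPLD2 (1.24), OSBPL6 (0.97), FKBP5 (0.84) and SRD5A1 (0.44). It was lower in 42D for SLC2A12 (-1.23), NR3C2 (-0.82) and TBPL1 (-0.63).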

How the results depend on the processing

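Counts of the 4 genes are counts of positive log2 fold changes, since none of them is tested. Of 3 genes, 0 were positive in C2 against sgT33-5 and in C2 against F2 with R1881 under every alternative run, and of 4 genes 3 were positive in 42D NT3 against LNCaP NT3 with DMSO. F2 against sgT33-5 with R1881 had 3 positive values, and 1 without the low-mitochondrial libraries (-0.12 for SGK1, -0.01 for CCDC141). With single libraries left out that count ran from 1 to 3. Counts ran from 0 to 1, with 0 otherwise, for the response of C2 against sgT33-5, of F2 against sgT33-5 and of C2 against F2 and for LNCaP sgT33-5 against NT3 with DMSO, and from 1 to 3, with 2 otherwise, for LNCaP F2 against NT3 with DMSO. The replicate block turned no sign of these genes, and over all lists it gave 271 calls, against 206 without it.

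When single libraries were left out, the sign turned in 16 values of the 4 genes. Those of the R1881 response were SGK1 (-0.26 to 0.17) and CCDC141 (-1.03 to 0.13) in LNCaP sgT33-5 against NT3, CCDC141 in F2 against NT3 (-1.31 to 0.25), in 42D sgT33-5 against NT3 (-0.14 to 0.15), in C2 (-1.17 to 0.16) and F2 (-0.86 to 0.6) against sgT33-5 and in C2 against F2 (-1.27 to 0.44), and SGK1 in 42D NT3 against LNCaP NT3 (-0.32 to 0.04). Those of levels were SGK1 (-0.16 to 0.32) and CCDC141 (-0.01 to 0.29) in F2 against sgT33-5 with R1881, and with DMSO CCDC141 in sgT33-5 (-0.84 to 0.33), F2 (-0.82 to 0.74) and 42D (-0.04 to 0.26), SGK1 in F2 (-0.3 to 0.02) and UBE2QL1 in 42D (-0.04 to 0.78). The last was the guide effect of UBE2QL1 between cell lines (-0.56 to 0.8). At 0 to 6 DMSO counts a group, depth limits every fold of CCDC141 and UBE2QL1 in LNCaP.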
